A study of Gallus gallus with 14 samples.

Results

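Long non-coding RNAs (lncRNAs) assembled from the uterovaginal junction (UVJ) of laying hens, lying between annotated genes on chicken chromosomes 6 and above, are described here. A transcript was a member when its deposited class code was u (intergenic), its chromosome was numbered 6 or higher except 16, and its identifier did not belong to the assembly genes MSTRG.23167 or MSTRG.11712. The rule used position and class, and no measured level. It gave 385 transcripts of 279 assembly genes, among 9977 lncRNAs in all, of which 2576 were newly assembled and 1838 of those were intergenic. Of the members, 145 lay on chromosomes 6 to 10 and 240 on chromosomes 11 to 28, which hold most of the microchromosomes, and no member lay above chromosome 28. No gene symbol is paired with any of them, so they are called by their assembly identifiers, with positions on Galgal4.

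Long non-coding RNAs are transcripts without a long open reading frame. Intergenic ones share no exon or intron with a coding gene, and some are known to act on the chromatin of neighbouring genes while for most no function is established. Chicken microchromosomes are small, gene-dense and rich in GC, with short introns and short spaces between genes, whereas the larger chromosomes hold longer introns. The UVJ, between the shell gland and the vagina, carries the sperm storage tubules from which sperm are released to fertilise later eggs, so it is the tissue in which the duration of fertility (DF) is studied.

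One library was made from the UVJ of each of 14 egg-type hens from 1 farm, which were caged singly and inseminated with pooled sperm. All were anesthetized with sodium pentobarbital for the sampling of the UVJ, and no other treatment is described. The long-DF group of 7 (JH14, JH25, JH95, JH104, JF25, JF61 and JF64) laid fertile eggs for a long time after insemination, and the short-DF group of 7 (JH49, JH68, JH109, JH130, JF21, JF40 and JF56) for a short time. In either group 4 names begin with JH and 3 with JF, and the sources used here do not say what the prefix, the strain or the age at tissue sampling was. The table holds lncRNAs alone, so the tissue was not checked against coding markers, and in such whole-tissue RNA fewer cells of a type and less RNA per cell cannot be told apart.

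Fragments on lncRNAs numbered 213304 to 281892 per hen, and between 6278 and 9106 of these fell on the members. This was 2.82% to 3.26% of the lncRNA fragments in the JH hens and 3.21% to 3.55% in the JF hens. The library totals behind the FPKM, the fragments scaled to transcript length and library size, were 6665190 ± 564982 (SD, n = 8) in the JH hens and 7619510 ± 624583 (SD, n = 6) in the JF hens, so depth moved with the prefix, and its part in the comparisons of prefixes was not tested. Of the 385 members, 316 had 7 or more hens at an FPKM of 0.1 and were tested, 69 did not, and 6 of those had no fragment in any hen. In 49 members no hen had more than 3 fragments, and a count of 0 allows up to 3, a limit that covers counting error only.

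Sequence was at hand for a single member, MSTRG.8138.1 on the minus strand of chromosome 18 (4936949 to 4938607), for which the study designed a pair of quantitative PCR primers of 21 bases each. They are shown because this lncRNA stood at 2 separate levels among the hens, as described further on, and because they mark the stretch by which it can be measured again.
MSTRG.8138.1 forward primer: agcttgtattcatagggcaca
MSTRG.8138.1 reverse primer: ttccaagcctgaactatttga
The forward primer holds 9 G or C bases and the reverse primer 8. No base is singled out in capitals, since neither primer was compared with another sequence.

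As a class, members of chromosomes 11 and above were shorter and spanned less of the genome than those of chromosomes 6 to 10. The median transcript was 827 nt (nucleotides) long on chromosomes 6 to 10 and 681 nt on chromosomes 11 and above. Longer than 1000 nt were 44.8% against 26.2% of the transcripts. Single chromosomes did not all follow the order of the classes, with medians of 561 nt on chromosome 8, 908 nt on chromosome 11 and 968 nt on chromosome 14. The median span from first to last exon was 4947 and 3104.5 bases, and the median longest intron 2474 and 1661 bases. Taking a single transcript per locus, the one with the highest mean FPKM, kept the order, with medians of 772.5 and 584 nt for length and 2286.5 and 1143.5 bases for the longest intron. On chromosomes 1 to 5, the 721 newly assembled intergenic transcripts had a median length of 959 nt and a median longest intron of 4542 bases. The median was 2 exons in each class of members, which is the fewest that the study kept, and 3 on chromosomes 1 to 5. Of all members 58.4% had 2 exons. This share was 55.2% on chromosomes 6 to 10 and 60.4% on chromosomes 11 and above, against 48.8% on chromosomes 1 to 5. With a single transcript per locus it was 61.1% on chromosomes 6 to 10 and 73.2% on chromosomes 11 and above. These are descriptions of assembled models, with no test, because transcripts of a gene overlap and are not independent.

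The chromosomes contributed unequally. Chromosome 9 held 39 members and chromosome 27 held 32, of which 24 belonged to the single assembly gene MSTRG.13719. Chromosome 22 held 1 member. Of the newly assembled lncRNAs, 51.6% were intergenic on chromosomes 6 to 10 and 54.7% on chromosomes 11 and above, against 70.7% on chromosomes 1 to 5. The remainder on chromosomes 6 and above was mostly antisense to an exon, with 38.1% and 33.9% of the newly assembled lncRNAs in the same order of chromosome classes. No member overlapped a known lncRNA of the table, but members were chosen by the intergenic class code, so this is no separate observation. A total of 219 members overlapped no other lncRNA, and 166 shared their locus with at least 1 other.

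The extremes of structure were modestly expressed, with 1 exception. The longest transcript, MSTRG.4970.1 (chromosome 11, 10881785 to 10890114), had 6828 nt in 2 exons and was also among the most abundant members, with an FPKM between 13.99 and 21.6. The widest span, 157320 bases on chromosome 11, belonged to MSTRG.4830.2, whose FPKM did not exceed 1.34 in any hen. The most exons, 18, were found in MSTRG.4422.1 on chromosome 10, with an FPKM between 0.329 and 1.11.

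**Figure D1:**
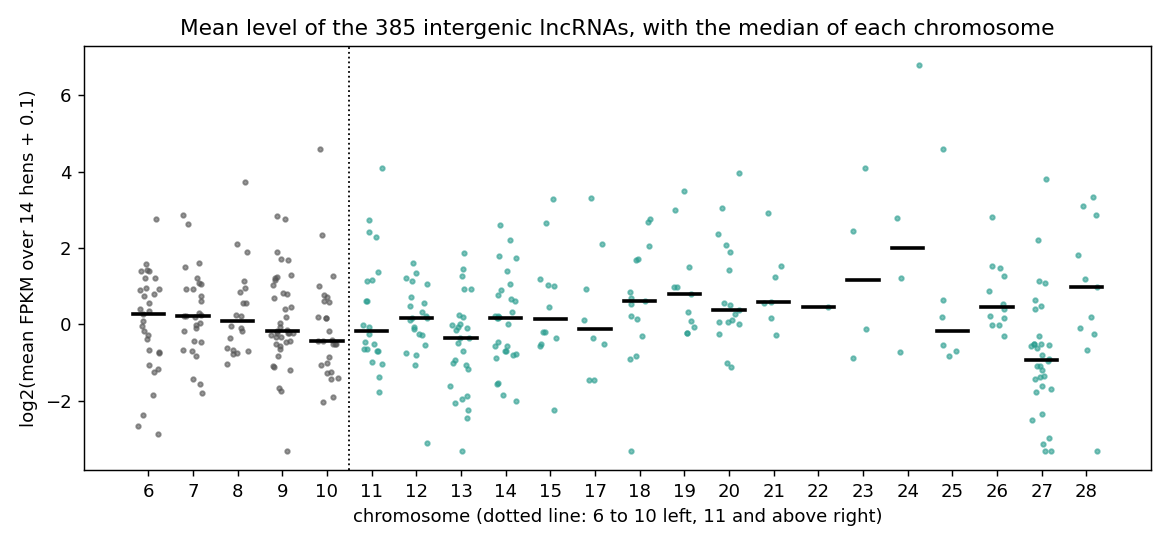
Each point is 1 of the 385 members, placed by chromosome (x) and by log2 of its mean FPKM over 14 hens plus 0.1 (y), and the bars are medians per chromosome. Levels overlapped on all chromosomes with several members, the median mean FPKM was lowest on chromosome 27 (0.425), and the highest point is MSTRG.13051.1 on chromosome 24. On chromosome 27, 24 of the 32 members are transcripts of MSTRG.13719, whose summed FPKM had a mean of 9.55.

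Most members were weakly expressed. The median of the mean FPKM was 0.887 on chromosomes 6 to 10 and 0.974 on chromosomes 11 and above, and 32 of 385 members had a mean FPKM above 5, 7 of them on chromosomes 6 to 10. Within each hen, the median of log2(FPKM + 0.1) on chromosomes 11 and above minus that on chromosomes 6 to 10 was 0.12 ± 0.24 (SD, n = 14), above 0 in 9 hens and below 0 in 5. The spread between hens was thus larger than the difference. Over the members that passed the filter it was 0.36 ± 0.21 and above 0 in 14 of 14 hens, but with the boundary moved so that chromosomes 9 and 10 joined the smaller ones it was -0.19 ± 0.15 and above 0 in 2 of 14 hens, so the direction depended on where the chromosomes were divided. A fragment was found in a hen for 83.4% ± 1.49 of the members on chromosomes 6 to 10 and for 74.6% ± 2.45 of those on chromosomes 11 and above (SD, n = 14). Without MSTRG.13719, 84.7% in place of 77.5% of the latter passed the filter, against 89.7% on chromosomes 6 to 10.

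The most abundant member was MSTRG.13051.1 (chromosome 24, 4294902 to 4297973, minus strand), a transcript of 410 nt in 3 exons with a mean FPKM of 111. In the long-DF hens its FPKM was 44.1 at the lowest, 114 at the median and 247 at the highest. In the short-DF hens the same values were 15.0, 87.2 and 188. The groups overlapped over most of this range, and the hen JH109 with 39 fragments was lowest while JH25 with 723 was highest. It alone made up between 1.98% and 25.4% of the summed FPKM of the members in a hen, and without it the sum over chromosomes 11 and above ranged from 426 to 511 between hens instead of 470.5 to 758. Between the groups its log2 fold change was 0.30 ± 0.42 (SE, adjusted p = 0.995, edgeR).

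The other abundant members were of both kinds, some at a like level in all hens and some at 0 in single hens. MSTRG.4233.2 (chromosome 10) had a mean FPKM of 24.1, the highest on chromosomes 6 to 10, but ranged from 0 to 40.0, and MSTRG.12746.1 (chromosome 23) had a mean of 17.1 and ranged from 0 to 32.01. Both shared their locus with another transcript and are described further on. MSTRG.13189.2 (chromosome 25, 173992 to 175012) had a mean FPKM of 24.2 and ranged from 16.1 to 33.6. MSTRG.11717.3 (chromosome 20, 5835020 to 5837936) ranged from 12.6 to 19.7, with an SD over hens of 0.17 on the log2 scale, and MSTRG.4970.1 had an SD of 0.20. On chromosomes 6 to 10, MSTRG.22162.3 (chromosome 8, 7373130 to 7377067) ranged from 10.3 to 17.4, with an SD of 0.21. None of these 4 lncRNAs differed between long-DF and short-DF hens beyond the spread (log2 fold changes between 0.02 and 0.06, adjusted p = 0.995 for each, edgeR). Between prefixes, MSTRG.4970.1 was lower in JH hens, by a log2 fold change of -0.37 ± 0.10 (SE, adjusted p = 0.0359, edgeR). On chromosomes 6 to 10, MSTRG.22162.3 was followed by MSTRG.21445.21 on chromosome 7, MSTRG.23453.5 on chromosome 9 and MSTRG.23319.4 on chromosome 9, with mean FPKM of 7.13, 7.06 and 6.66. MSTRG.21445.21 was higher in JH hens, by a log2 fold change of 0.97 ± 0.17 (SE, adjusted p = 0.00279, edgeR). Summed over the members of chromosomes 6 to 10, the FPKM was 206 to 234 in long-DF hens and 224 to 261 in short-DF hens, which overlapped, and no test was made of this sum.

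Members that shared a stretch of genome with other transcripts varied more between hens on the log2 scale than members alone in theirs. Of the members, 155 belonged to 49 assembly genes with 2 or more member transcripts, and in 44 of these genes the transcript with the highest FPKM was not the same in all hens. The most abundant transcript of such a gene had a median SD over hens of 1.33 on the log2 scale, against 0.71 for the sum of the gene's transcripts, and the sum was the less variable in 35 of 49 genes. Among members with a mean FPKM of at least 1, those alone in their locus had a median SD of 0.53 (120 members) and those sharing a locus one of 1.41 (67 members). Whether the division of fragments among overlapping models by the assembly contributed to this was not tested.

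MSTRG.4233 on chromosome 10 (8395705 to 8398167) had the highest mean summed FPKM of the genes with 2 or more member transcripts, 29.1. Its transcript MSTRG.4233.2 had 318 to 594 fragments in 11 hens, 11 in JH14 and none in JF64 and JH68. Its transcript MSTRG.4233.3 had 526 fragments in JF64, 463 in JH68 and at most 9 in any other hen. The pair lie over nearly the same bases, and the sum stayed between 318 and 594 fragments in every hen except JH14, where it was 11. That hen thus had little of either transcript, while JF64 and JH68 had 526 and 463 fragments on MSTRG.4233.3. Whether JF64 and JH68 differed in the RNA itself or in how fragments were assigned was not tested.

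In MSTRG.23453 on chromosome 9 and MSTRG.12746 on chromosome 23 the sum also varied less than the most abundant transcript, but not to the same degree. MSTRG.23453.5 ranged from an FPKM of 0 in JH25 to 11.2, whereas the sum of the gene was between 7.47 and 11.9 in all 14 hens, with an SD of 0.18 on the log2 scale against 2.03 for that transcript. MSTRG.12746.2 had 96 to 142 fragments in JH25, JH104, JH109 and JH130 and at most 1 in the other 10 hens, while MSTRG.12746.1 had 0 in JH130 and 50 to 249 elsewhere. The sum of this pair was 70 to 250 fragments. Its summed FPKM had an SD of 0.53 on the log2 scale, against 2.08 for MSTRG.12746.1. In MSTRG.11749 on chromosome 20, MSTRG.11749.1 had 45 to 134 fragments in 13 hens and none in JF64, the hen in which MSTRG.11749.2 had 100 fragments while the other hens had at most 5.

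**Figure D2:**
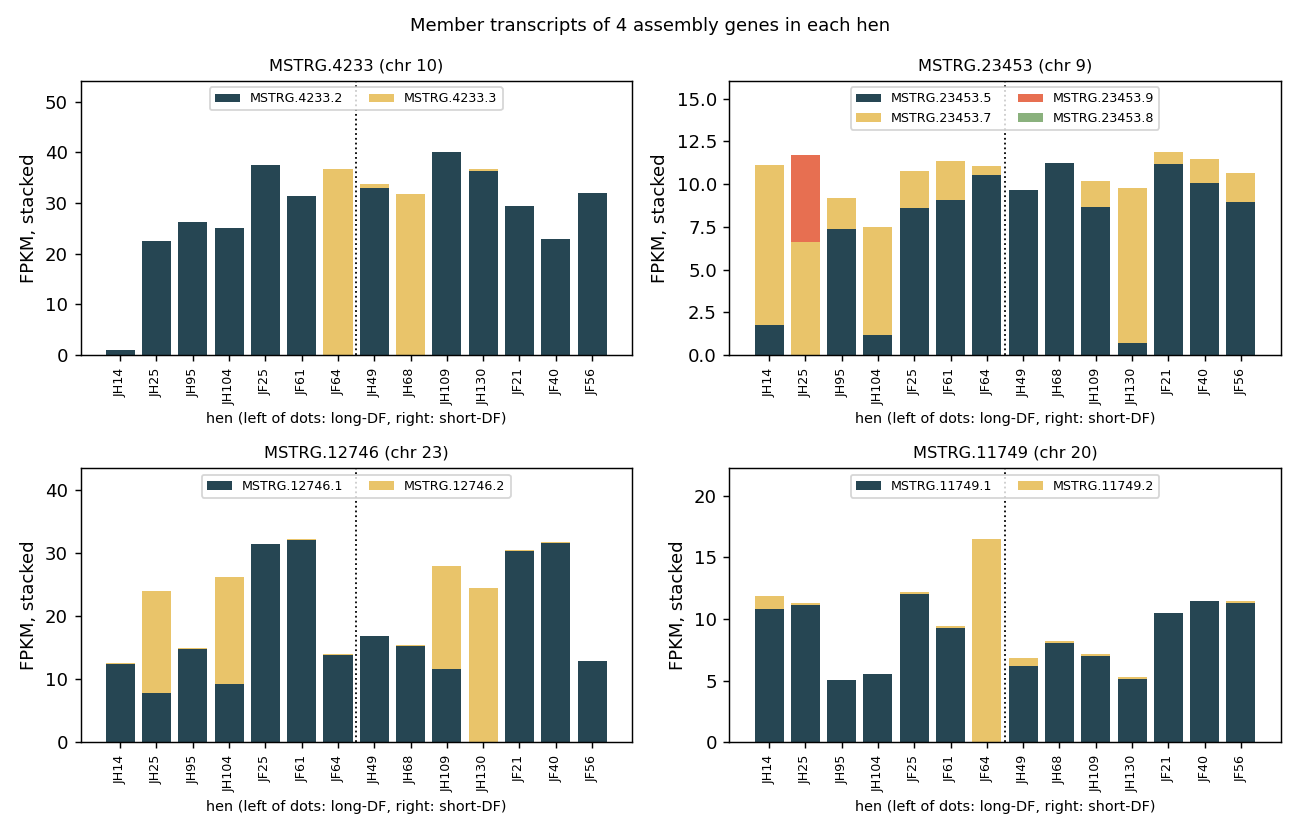
Stacked bars give the FPKM (y) of the member transcripts of MSTRG.4233, MSTRG.23453, MSTRG.12746 and MSTRG.11749 in each of the 14 hens (x, long-DF left of the dotted line). The height of the bars varies less than the colours, except for JH14 in MSTRG.4233, where the summed FPKM was 0.894.

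MSTRG.13719 on chromosome 27 (125816 to 178259) had the most transcripts, 24. The leading transcript changed between hens, with 11 of them highest in at least 1 hen and on average 6 with any fragment in a hen. MSTRG.13719.1 had no fragment in 6 hens and 10 to 24 fragments in the other 8. The summed fragments of the 24 transcripts lay between 21 and 122 per hen. MSTRG.14366.2 on chromosome 28 (4151209 to 4152200) was another of the most variable members, with an FPKM between 0 and 5.59, while the sum of its gene lay between 1.05 and 6.34.

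Among all members, 24 stood at 2 levels separated by a step of at least 1.5 on the log2 scale, with at least 2 hens on each side and at least 10 fragments in every hen of the higher side. This rule was chosen after the values were seen. It was applied to the members alone, so the share among all lncRNAs is not known here. The step separated JH from JF hens in 2 of the 24, MSTRG.23016.13 and MSTRG.6193.1, and separated long-DF from short-DF hens in 0. Of the 22 that shared a locus, the fragments summed over the locus overlapped between the sides in 19, and 2 members stood alone in their locus.

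The first of these was MSTRG.21706.2 on chromosome 7 (23521704 to 23526163, minus strand), a transcript of 4351 nt whose single intron has 109 bases. It had 155 fragments in JH104, 153 in JF64, 144 in JH49, 114 in JH109, 151 in JF21 and 207 in JF40. In the other 8 hens it had 0, which allows up to 3 fragments in each. The 6 hens with the transcript comprised 2 long-DF and 4 short-DF hens, and 3 JH and 3 JF hens, so neither label divided them. With an FPKM of at least 0.1 in 6 hens it did not pass the filter, and without the filter its log2 fold change in long-DF hens was -0.93 ± 1.57 (SE, adjusted p = 0.993, edgeR). Transcripts of the same assembly gene outside the lncRNA table were not analysed here.

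The second was MSTRG.8138.1, the lncRNA of the primers. It had 67 fragments in JH14, 49 in JH95, 56 in JH104, 53 in JF64, 68 in JH49, 53 in JH109 and 56 in JF56. It had 6 fragments in JH25, 3 in JF25, 8 in JF61, 10 in JH68, 12 in JH130, 12 in JF21 and 8 in JF40. The hens at the higher level were 4 of 7 long-DF and 3 of 7 short-DF hens, or 5 of 8 JH and 2 of 6 JF hens, and no hen lay between 12 and 49 fragments. Long-DF hens had an FPKM of 3.18 ± 2.67 (SD, n = 7) and short-DF hens one of 3.06 ± 2.73 (SD, n = 7), which gave a log2 fold change of 0.10 ± 0.72 (SE, adjusted p = 0.995, edgeR), with p = 0.872 by an exact permutation test.

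**Figure D3:**
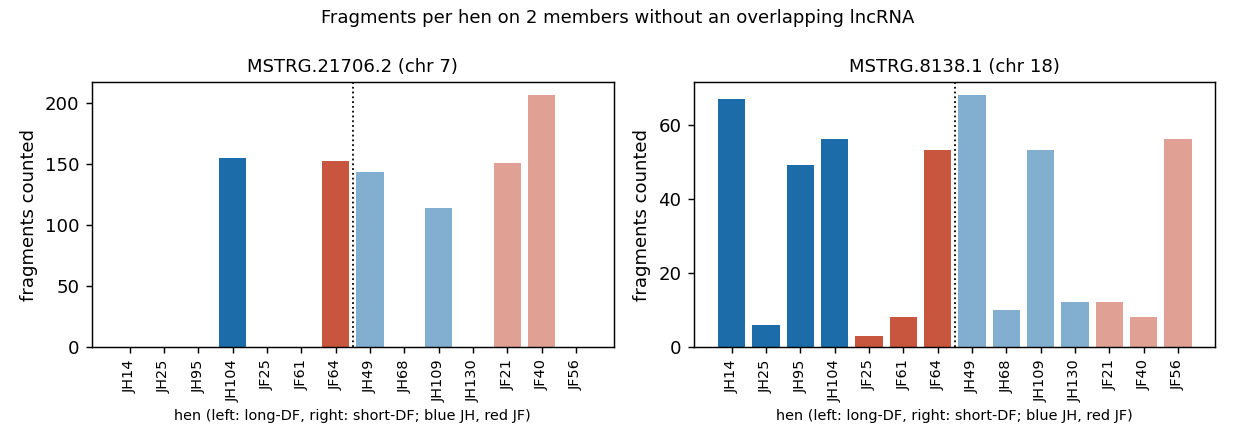
Bars give the fragments counted (y) on MSTRG.21706.2 and MSTRG.8138.1 in each hen (x, long-DF left of the dotted line and short-DF right, JH blue and JF red). MSTRG.21706.2 had 114 to 207 fragments in 6 hens and 0 in 8, and MSTRG.8138.1 had 49 to 68 in 7 hens and 3 to 12 in 7, with both groups on both sides.

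MSTRG.6240.3 on chromosome 13 (16184909 to 16189510) was high in a pair of hens. It had 458 fragments in JF61, 306 in JH104 and at most 1 in each of the other 12. Both hens were long-DF, but the 5 other long-DF hens had 0 or 1 fragments like the short-DF hens, and the exact permutation test gave p = 0.0734. It shared its locus with 3 other lncRNAs, and the locus sum was 777 to 1230 fragments in these hens and 328 to 774 in the others, a log2 fold change of 0.04 between the DF groups (adjusted p = 0.996, edgeR). It was named after its values were seen.

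The comparison of long-DF with short-DF hens asks which lncRNAs of the UVJ go with the duration of fertility. A call needed a log2 fold change of 2 or more in either direction, with p no higher than 0.01 before adjustment and 0.05 after it. These are the limits of the study, which with edgeR reported lncRNAs called in both directions between these groups, members among them. Here no member of the 316 tested met them. The background was 0% of 6887 lncRNAs by edgeR, 2 lncRNAs by DESeq2 and 0 by limma, none of them a member. The reason for the difference from the study was not tested. At an unadjusted p under 0.05 there were 11 members, 6 higher and 5 lower in long-DF hens, which is 3.48% of those tested beside 2.12% of all lncRNAs. The median log2 fold change of the members was -0.02 and that of all lncRNAs tested was -0.02. The smallest adjusted p of a member was 0.995, so the members named next are the nearest to a difference and none passed the test.

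Nearest on the higher side were MSTRG.3972.2 (chromosome 10, 71602 to 72015), MSTRG.20910.1 (chromosome 6, 27038614 to 27041184) and MSTRG.11749.2. MSTRG.3972.2 had an FPKM of 0.810 at the lowest, 1.303 at the median and 2.81 at the highest in long-DF hens, and 0, 0.457 and 1.10 in short-DF hens. These groups overlapped only through JH49, and they rested on at most 6 fragments a hen. Its log2 fold change was 1.60 ± 0.42 (SE), with an adjusted p of 0.995 in edgeR. By the exact permutation test p was 0.00233, which was not adjusted for the number of lncRNAs. MSTRG.3972.2 overlapped MSTRG.3972.1, and with both counted together the log2 fold change fell to 0.60 (adjusted p = 0.996, edgeR). The near separation thus held for the transcript and was weaker for its locus. MSTRG.20910.1 had 13 fragments over the long-DF and 2 over the short-DF hens, a ratio of 6.24 with a counting interval of 1.41 to 57.0. MSTRG.11749.2 owed its value of 3.79 ± 1.39 (SE) on the log2 scale to JF64, as given above, and the sum of its locus gave 0.12 (adjusted p = 0.996, edgeR).

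On the lower side stood MSTRG.5415.1 (chromosome 12, 6057881 to 6069271), MSTRG.21859.1 (chromosome 7, 33496167 to 33506096) and MSTRG.4830.4 on chromosome 11. MSTRG.5415.1 had an FPKM of 0.295 at the lowest, 0.358 at the median and 0.738 at the highest in long-DF hens, and 0.677, 0.865 and 2.70 in short-DF hens. A single long-DF hen, JH95, reached into the short-DF range, on 1 to 8 fragments a hen. The log2 fold change was -1.48 ± 0.38 (SE, adjusted p = 0.995, edgeR), with p = 0.00233 by the exact permutation test, again not adjusted. MSTRG.5415.1 and MSTRG.3972.2 were chosen for a small p in the same hens, so their permutation p is no separate support. MSTRG.21859.1 had -1.22 ± 0.39 and MSTRG.4830.4 had -2.52 ± 0.98 (SE, adjusted p = 0.995 for both, edgeR), and the locus sum of the latter was -0.05. The FPKM of the groups did not overlap in 1 member of 316, beside 0.0436% of all lncRNAs tested. This was MSTRG.4191.1 on chromosome 10 (6433471 to 6434238), named after its values were seen, whose highest long-DF FPKM was 1.680 and lowest short-DF FPKM 1.682, with a log2 fold change of -0.47 ± 0.22 (SE, adjusted p = 0.995, edgeR).

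**Figure D4:**
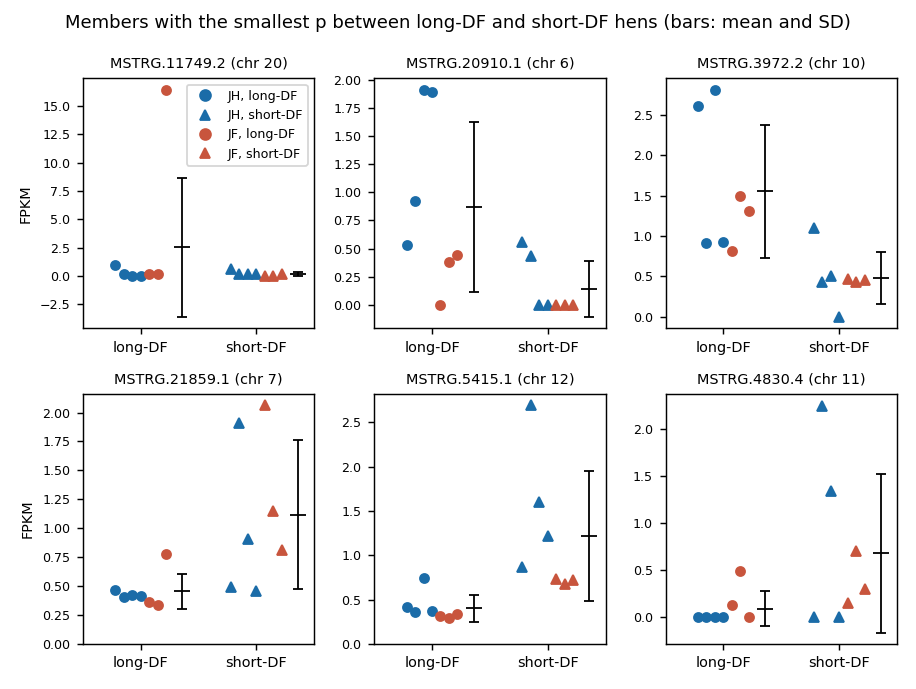
Points give the FPKM (y) of each hen for the 6 members with the smallest p between long-DF and short-DF hens (x), with JH hens in blue and JF hens in red, and the bars are mean and SD (n = 7). In the upper row the long-DF hens tended to lie higher and in the lower row lower, MSTRG.11749.2 rests on the hen JF64, and none passed the test (adjusted p = 0.995, edgeR).

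Within a prefix, too, no member was called between long-DF and short-DF hens. Among the 8 JH hens the count was 0 of 316 beside a background of 0.0145%, and 20 members had an unadjusted p under 0.05, or 6.33% beside 3.93% of all lncRNAs. Among the 6 JF hens the count was 0 of 316 beside 0.0581%, and 15 members had an unadjusted p under 0.05, or 4.75% beside 3.62%. By DESeq2 no member was called in either, and by limma 1 member, MSTRG.13641.1, was called among the JF hens. In the JF hens the exact permutation test cannot give a p below 0.1.

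MSTRG.8067.1 on chromosome 18 (3449901 to 3453712) moved in opposite directions under the prefixes. Among the JH hens its FPKM was 3.41, 3.63, 4.26 and 3.20 in the long-DF and 6.38, 7.15, 6.30 and 6.75 in the short-DF hens. Among the JF hens it was 14.1, 10.7 and 7.89 in the long-DF and 8.26, 5.30 and 6.81 in the short-DF hens. The JH groups did not overlap, with long-DF lower, while the JF groups overlapped, with long-DF mostly higher. The log2 fold changes were -0.84 ± 0.21 (SE) and 0.77 ± 0.29 (SE), with locus sums of -0.41 and 0.72, and they differed by -1.63 ± 0.34 (SE), which by edgeR had an unadjusted p of 0.000382 and an adjusted p of 0.482, so the difference did not pass. By this test of the difference between prefixes, 0 of 316 members were called beside a background of 0%, and 16 had an unadjusted p under 0.05, or 5.06% beside 4.47%.

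MSTRG.22568.7 on chromosome 8 was nearest to a difference on the higher side in the JH hens. Its FPKM was 4.21, 3.36, 2.63 and 3.12 in the long-DF and 1.23, 1.92, 2.29 and 1.39 in the short-DF hens, without overlap. The log2 fold change was 0.97 ± 0.27 (SE, adjusted p = 0.993, edgeR). In the JF hens the nearest were a pair of transcripts of MSTRG.14108 on chromosome 28, where MSTRG.14108.1 had fragments in the 3 long-DF hens alone and MSTRG.14108.2 in the 3 short-DF hens alone. Their locus sum differed by -0.32 on the log2 scale (adjusted p = 0.994, edgeR).

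Of the members that the study discusses by name, MSTRG.8138.1 was given above. MSTRG.20950.12 on chromosome 6 (29256201 to 29275958) had 5 fragments in JF25, 1 in JH49, 1 in JF56 and none in the other 11 hens. It did not pass the filter. MSTRG.22548.1 on chromosome 8 (21595094 to 21605634) had 1 to 3 fragments in every hen and a log2 fold change of -0.39 ± 0.35 (SE, adjusted p = 0.995, edgeR). MSTRG.13256.1 on chromosome 25 (748264 to 748821) had 9 fragments over the long-DF and 2 over the short-DF hens, a ratio of 4.32 with a counting interval of 0.895 to 41.1. The exact permutation test gave p = 0.304 for MSTRG.22548.1 and p = 0.0781 for MSTRG.13256.1, and neither passed the adjusted test. The study listed MSTRG.22548.1 as higher and MSTRG.13256.1 as lower in long-DF hens, the reverse of the directions given here. It reported MSTRG.20950.12 as lower in long-DF hens, and MSTRG.8138.1 as higher, the latter by quantitative PCR as well. The study describes its PCR replicates as an independent set and scaled them to beta-actin, so hens and measure differ from those used here. The reason for the differences from the study was not tested.

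JH and JF hens differed more. With the DF group as a covariate, 20 of 316 members were called by edgeR, 11 higher and 9 lower in JH hens, or 6.33% beside 2.76% of the 6887 lncRNAs tested. Of chromosomes 6 to 10 there were 9 called of 130 tested, and of chromosomes 11 and above 11 of 186. In each direction the shares were 3.48% beside 1.6% for higher and 2.85% beside 1.16% for lower. At an adjusted p of at most 0.05 without a fold limit, 36 members passed, 18 in each direction, or 11.4% beside 6.93%. The median log2 fold change was -0.03 over the members and 0.02 over all lncRNAs tested.

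Higher in JH hens were MSTRG.21486.7 on chromosome 7 (15781765 to 15784536), MSTRG.11758.1 on chromosome 20 (6983174 to 6983555), MSTRG.22568.7 on chromosome 8 (23002145 to 23018084) and MSTRG.8418.11 on chromosome 19 (81746 to 85672). MSTRG.21486.7 had an FPKM of 0.5682 at the lowest, 3.79 at the median and 5.69 at the highest in JH hens, and 0, 0.124 and 0.350 in JF hens. The prefixes did not overlap, and its log2 fold change was 4.30 ± 0.50 (SE, adjusted p = 0.00017, edgeR). MSTRG.8418.11 was more abundant and changed less, with 7.59, 10.8 and 13.2 in JH hens and 3.51, 4.28 and 5.46 in JF hens. Again the prefixes did not overlap, and its log2 fold change of 1.17 ± 0.14 (SE, adjusted p = 0.000207, edgeR) lay under the limit of 2. MSTRG.22568.7 had 1.23, 2.46 and 4.21 in JH hens and 0.312, 0.534 and 0.922 in JF hens, with a log2 fold change of 1.90 ± 0.30 (SE, adjusted p = 0.00143, edgeR). MSTRG.11758.1 rested on few fragments, 37 over the JH hens and 1 over the JF hens, a ratio of 28.2 with a counting interval of 4.76 to 1144 (adjusted p = 0.00106, edgeR).

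Lower in JH hens were MSTRG.23016.13 on chromosome 9 (7720559 to 7731567), MSTRG.20363.3 on chromosome 6 (8657996 to 8661448), MSTRG.21870.1 on chromosome 7 (34207343 to 34223810) and MSTRG.6193.1 on chromosome 13 (14725469 to 14729811). MSTRG.20363.3 had an FPKM of 0.237 at the lowest, 0.644 at the median and 1.07 at the highest in JH hens, and 2.59, 3.11 and 4.05 in JF hens. All JF hens lay above all JH hens, with a log2 fold change of -2.66 ± 0.26 (SE, adjusted p = 2.92e-05, edgeR). MSTRG.6193.1 had 0 to 4 fragments in the JH hens and 18 to 69 in the JF hens, and MSTRG.21870.1 had 2 to 7 and 12 to 18. Their log2 fold changes were -4.35 ± 0.56 (SE, adjusted p = 0.000364, edgeR) and -1.85 ± 0.24 (SE, adjusted p = 0.000352, edgeR). For each of these 8 members the exact permutation test gave p = 0.000666, the smallest that splits of 8 against 6 hens can give. It follows from the separation of their FPKM and was not adjusted for the number of lncRNAs. The members were chosen for a small p in the same hens, so it is no separate support.

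MSTRG.23016.13 had the smallest p and depended on its locus. It had 1 or 2 fragments in each JH hen and 18 to 82 in each JF hen, with a log2 fold change of -4.52 ± 0.28 (SE, adjusted p = 2.9e-07, edgeR). The 4 lncRNAs of its locus summed gave -0.33 (adjusted p = 0.5677, edgeR), and MSTRG.23016.12 had 27 to 67 fragments in every JH hen, 25 to 68 in 4 JF hens and none in JF40 and JF56. The transcript differed between the prefixes and the locus as a whole did not pass the test.

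**Figure D5:**
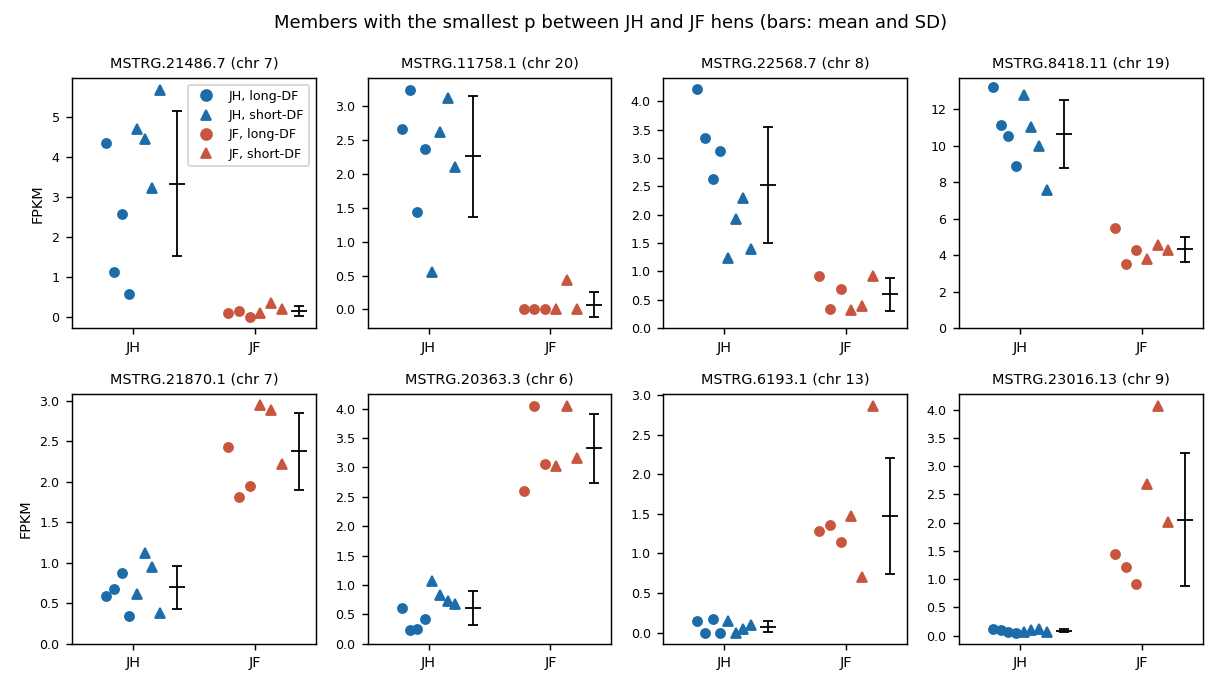
Points give the FPKM (y) of each JH hen (blue, n = 8) and JF hen (red, n = 6) for the 8 members with the smallest p between prefixes, circles for long-DF and triangles for short-DF hens, and the bars are mean and SD. The FPKM of the prefixes does not overlap in any of the 8 panels (exact permutation test, p = 0.000666 each). In fragments the prefixes met, at 1 in MSTRG.11758.1 and at 10 in MSTRG.22568.7, so there the gap rests on the scaling to FPKM.

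The 20 called members divided by whether a locus held other lncRNAs. For the 10 that were alone in their locus, the locus sum is the member's own count. They were all called as loci too, which is no separate check. Of the 10 that shared one, 5 were called for the summed locus and 5 were not, namely MSTRG.23016.13, MSTRG.13676.11, MSTRG.13720.1, MSTRG.12746.2 and MSTRG.23145.2. For the last of these the locus sum fell by 1.24 on the log2 scale with an adjusted p of 0.00463 (edgeR), so it was the fold limit alone that it missed. MSTRG.13676.11 on chromosome 26 had 9 to 24 fragments in 7 JH hens and none in JH104 or any JF hen. Thus it passed the filter through JH hens alone. It was at least 4.92-fold higher in JH hens when 3 fragments are allowed in each JF hen, and its locus sum gave 0.56 (adjusted p = 0.107, edgeR). In MSTRG.12746.2 the sign turned, from 6.04 for the transcript to -0.36 for the locus (adjusted p = 0.52, edgeR). Of the 20 called members, 7 rose above an adjusted p of 0.05 (edgeR) when certain single hens were left out. Of 14 such fits, MSTRG.23145.2, MSTRG.14108.4 and MSTRG.22001.1 each did so in 11. MSTRG.12746.2 did so in 7, MSTRG.14108.2 in 5, MSTRG.13755.1 in 3 and MSTRG.13720.1 in 1. The limits on fold change and unadjusted p were not applied in this count.

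Counts were small for part of the list, since 8 of the 20 had no more than 10 fragments in any hen. The FPKM of the prefixes did not overlap in 14 of 316 members, or 4.43%, beside 3.53% of all lncRNAs tested. MSTRG.22670.1 on chromosome 8 (25926898 to 25936527), a transcript of 4002 nt named after its values were seen, was the best counted of those alone in their locus. It had 16 to 134 fragments in the JH hens and 3 to 29 in the JF hens, which overlapped, and a log2 fold change of 2.54 ± 0.47 (SE, adjusted p = 0.00469, edgeR). MSTRG.6305.5 on chromosome 13 went the other way, with 6 to 19 fragments in the JH hens and 9 to 98 in the JF hens and a log2 fold change of -2.15 ± 0.40 (SE, adjusted p = 0.00489, edgeR). MSTRG.8560.1 on chromosome 19 had at most 3 fragments in a JH hen and 6 to 15 in each JF hen, and MSTRG.14036.2 on chromosome 28 had 1 fragment over all JH hens and 28 over the JF hens.

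A pair of called members lay next to each other, which was seen after the tests. MSTRG.23396.1 and MSTRG.23398.1 lie on the plus strand of chromosome 9, at 20287140 to 20299962 and 20318540 to 20345488, and rose by 3.18 ± 0.66 and 3.01 ± 0.66 (SE) on the log2 scale in JH hens. In a JH hen MSTRG.23396.1 had 1 to 12 fragments and MSTRG.23398.1 had 1 to 7. Both had at most 1 in a JF hen, with adjusted p of 0.00979 and 0.014 in edgeR. Between them lie 18578 bases, with no other lncRNA of the table. Whether they are pieces of a single transcript was not tested.

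Another kind of neighbourhood was the head-to-head pair, in which a member on the minus strand and a member on the plus strand start within 5000 bases of each other and point apart. Only members that passed the filter were searched, and among them there were 4 such pairs, with 2373 to 4802 bases between the starts. MSTRG.8421.1 (78058 to 78863) and MSTRG.8418.11 on chromosome 19 were 2883 bases apart and the most abundant pair, with mean FPKM of 11.2 and 7.93. MSTRG.8421.1 ranged from 6.98 to 14.2 over the hens. The other pairs were MSTRG.4343.3 with MSTRG.4344.1 on chromosome 10, MSTRG.4887.1 with MSTRG.4889.1 on chromosome 11, and MSTRG.11911.1 with MSTRG.11912.1 on chromosome 20. Levels within a pair could be far apart, as for MSTRG.4887.1 and MSTRG.4889.1, with mean FPKM of 0.623 and 5.27.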

How the data were processed

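RNA of the UVJ of 14 hens was sequenced by the authors with 1 library per hen (stranded total RNA). Reads were aligned by them to Galgal4 with TopHat, and transcripts were assembled with StringTie and classed with Gffcompare. The deposited counts are the fragments per transcript, without normalization, and the counting tool is not given in the sources used here. The deposited FPKM values were normalized by the authors for transcript length and library total. The deposited annotation gives positions and class codes. Overlap with coding genes was not analysed here.

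Members and gene lists were chosen with earlier results of these data known. Counts of all 9977 lncRNAs were tested with edgeR 4.0.16 in R 4.3.3 (TMM normalization, quasi-likelihood F test), for the 6887 that had 7 or more of 14 hens at an FPKM of 0.1, and p-values were adjusted over these (Benjamini-Hochberg). A call needed a log2 fold change of 2 or more in either direction, with p no higher than 0.01 before adjustment and 0.05 after it. The SE is the size of the log2 fold change over the root of F. Members below the filter were fitted without it. Hens are separate animals, so p-values measure the spread between hens. Levels used log2(FPKM + 0.1), and single members two-sided exact permutation tests. Counting intervals of ratios are exact 95% intervals for fragments. Loci are lncRNAs that overlap on either strand. The tests were run on simulated counts with planted changes, drawn for each lncRNA independently. Overlapping transcripts that share fragments were not simulated, so that run does not bear on them. The lncRNA fragments per hen, 213304 to 281892, limit the precision of members with few fragments.

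Named members were, by rule, the 5 with the highest mean FPKM on each chromosome class, those with the smallest p in each direction (3 between DF groups, 4 between prefixes, 1 within each prefix), those named in the study, the extremes of length, span, exons and transcript number, and the 4 with a median FPKM of at least 1 and the largest SD. Other names were chosen after the values were seen, as were the neighbouring pairs. Alternatives were median-ratio (RLE) scaling, no filter, an FPKM of at least 0.5, DESeq2 1.42.0, limma 3.58.1 on log2(FPKM + 0.1), locus sums, covariates and leaving out each hen. Python 3.11.15 with numpy 2.4.6, pandas 2.3.3, scipy 1.17.1 and matplotlib 3.10.9 was used.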

Additional observations from a re-analysis of the deposited data

Results flagged for a closer look

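In each DF group of 7 hens, the highest or the lowest level of a named member was set against the other 6 by Dixon's ratio. This is the gap to the nearest hen divided by the range, and it was compared with its tabulated 95% critical value. The ratios were taken on the log2 scale used for levels, while the values printed beside them are FPKM. Of 104 groups, a few of which held summaries per hen rather than a named member, 14 stood past it. Chance flags about 1 in 20 groups, but this count is no test, since some members were named for their large SD or after their values in single hens were seen.

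Several of these lay in loci with more than 1 transcript. MSTRG.4233.3 was present in JF64 alone among long-DF hens (ratio 1, FPKM 36.7) and mainly in JH68 among short-DF hens (ratio 0.620, FPKM 31.8), and MSTRG.4233.2 was 0 in JH68 (ratio 0.908). MSTRG.11749.1 was 0 in JF64 (ratio 0.823) and MSTRG.12746.1 was 0 in JH130 (ratio 0.826), and MSTRG.23453.5 had an FPKM of 0.682 in JH130 (ratio 0.903).

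Other members had single hens apart. MSTRG.13051.1 had 15.0 in JH109 against 66.7 to 188 in the other short-DF hens (ratio 0.590). MSTRG.20950.12 had 0.875 in JF25 and 0 in the other long-DF hens (ratio 1). MSTRG.21859.1 and MSTRG.4422.1 were highest in JF64 (ratios 0.622 and 0.612), MSTRG.5415.1 was highest in JH95 (ratio 0.657) and MSTRG.3972.2 was 0 in JH130 (ratio 0.670). MSTRG.4191.1 was lowest in JH95 among long-DF hens (ratio 0.685) and highest in JF40 among short-DF hens (ratio 0.616).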

How the results depend on the processing

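Between long-DF and short-DF hens the count of lncRNAs called was 0 by edgeR and 2 by DESeq2, and 0 to 1 with a hen left out, and members stayed at 0. Within JH hens the count was 5 by DESeq2, 7 by limma, 0 for locus sums and 0 to 2 with a hen left out. Within JF hens it was 28 by limma (1 member), 1 for locus sums and 1 to 3 with a hen left out. The difference between prefixes gave 1 with an FPKM of at least 0.5, 4 by DESeq2, 4 by limma, 1 for locus sums and 0 to 2 with a hen left out, where 0 to 1 members were called (MSTRG.23016.12, without JF21). Between JH and JF hens 190 lncRNAs and 20 members became 119 and 11 with an FPKM of at least 0.5, and 477 and 36 without the fold limit. Leaving out a hen gave 158 to 201 lncRNAs and 14 to 23 members. The level difference between chromosome classes turned to -0.19 with the boundary at chromosome 9, and lay between 0.09 and 0.15 with a hen left out. MSTRG.12746.2 turned to -0.36 for the locus sum. Of 471 fits of 23 members named or called between prefixes, 408 kept their direction and their side of an adjusted p of 0.05. Of the others, 62 kept the direction alone and 1 reversed. The causes were not tested. No paired analysis was possible because the labels give no replicate numbers shared between groups. Low counts limit the members most, since 49 never exceeded 3 fragments.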
